A study of Arabidopsis thaliana with 16 samples.

Results

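Salicylic acid is the hormone that plants build up against biotrophic pathogens, and 10 Arabidopsis thaliana genes of its synthesis and action are described here across low and high light. They are ICS1, EDS5, EDS1, PAD4, CBP60G, SARD1, NPR1, PR1, PR2 and PR5, which are 10 of the 27070 loci named on the array. They were chosen by locus, with earlier results of these data known. Each was represented by 1 probe set, and the authors' annotation marked 0 of the 10 as cross-hybridising. Transcripts were measured in whole rosettes on Affymetrix gene arrays. The genotypes were a knockout of SAP3 (sap3), which encodes a zinc-finger stress-associated protein, and a knockout of CML49 (cml49), which encodes a calmodulin-like protein, and Col-0 wild type (WT), against which both were set. The photon flux (µmol per square metre and second) was 80 to 100 during the first 3 weeks of growth and 8 during 10 further days for all groups, which were harvested after a shift to 800 (high light, HL) or without it (low light, LL). The titles give 60 min for the shift and the treatment protocol 10 min, so its length is not settled. There were 3 arrays of 15 plants each for sap3 HL, sap3 LL, WT HL and WT LL, and 1 pooled array of 45 plants each for cml49 HL, cml49 LL, WT HL and WT LL. The labels describe the WT pools as replicates 1 to 3, but whether they hold the RNA of the single WT arrays is not known, and some genes read outside the range of those arrays in the pools. The alleles and the number of lines behind each knockout are not stated in the labels. All values are log2 signals, so that a difference of 1 is a doubling of the signal.

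In the pathogen response, the lipase-like proteins EDS1 and PAD4 act early and promote salicylate accumulation. The transcription factors CBP60g (gene CBP60G) and SARD1 then bind the promoter of ICS1, whose product isochorismate synthase makes the precursor of salicylate in the chloroplast, and EDS5 exports that precursor. Salicylate is sensed by NPR1, a coactivator, and by its relatives NPR3 and NPR4, which act as corepressors. The PR1, PR2 and PR5 genes, for a secreted CAP-domain protein, a beta-1,3-glucanase and a thaumatin-like protein, are the textbook outputs.

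The light state of 3 arrays opposed their labels. A light score was built from 250 other probe sets that separated the HL pools (score 1) from the LL pools (score 0). The array labelled sap3 HL replicate 3 scored 0.027, the array labelled WT HL replicate 2 scored 0.066 and the array labelled sap3 LL replicate 2 scored 0.954. The other HL arrays scored 0.916 to 0.998 and the other LL arrays 0.028 to 0.057. Every comparison was therefore fitted on the 12 arrays as labelled and on the 9 arrays that remain without those 3. The 3 were set apart by their measured transcripts, so p-values from the 9 arrays do not count that choice. SAP3 itself read 5.06 and 5.28 in the remaining sap3 HL arrays, against 6.14 and 6.48 in the remaining WT HL arrays. In low light it read 4.21 and 4.05 in the remaining sap3 arrays, against 4.85, 4.84 and 5.14 in WT. In the 3 arrays set apart it read 6.98 (labelled sap3 LL), 3.74 (labelled sap3 HL) and 3.94 (labelled WT HL), so the sap3 and WT ranges overlapped as labelled. Both SAP3 (above every WT array) and the light state thus went against the label in the array labelled sap3 LL replicate 2. Both did so in WT HL replicate 2 too, where SAP3 lay below every other WT array and just below the remaining sap3 LL arrays. Whether these samples were exchanged was not tested. CML49 was not lower in the pools labelled cml49, at 4.23 in HL and 3.97 in LL, against 3.30 and 2.77 in the pools labelled WT. The 12 single sap3 and WT arrays read 4.14 to 4.54, so the pools labelled WT lay farther from them than the pools labelled cml49. Whether the pool labels are exchanged, and whether the probes lie in a deleted part, was not tested, and directions for both knockouts rest on the labels. Of 21 markers of leaf, guard cell, root, flower and senescing leaf, the leaf genes averaged 5.91 to 13.19, the guard cell genes 5.04 to 7.85, the root genes 1.3 (IRT1) to 8.60 (PYK10), the flower genes 1.49 to 2.62 and the senescing leaf genes 2.07 to 4.83.

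SARD1 was the gene of the 10 that shifted most with high light, and it shifted down. In the 9 arrays SARD1 was lower in HL in both genotypes, EDS5 was higher in HL in sap3, and PR5 was higher in HL in WT, while ICS1, EDS1, PAD4, CBP60G, NPR1, PR1 and PR2 did not pass the test in either genotype. For sap3, 2 of the 10 genes were called in the 9 arrays, 1 in each direction, where 7.57% of all 28403 probe sets were called. For WT it was also 2 of 10, 1 in each direction, where 9.13% of all probe sets were called. With only 10 genes, these counts exceed the background shares by little. The median difference over the 10 genes was -0.07 in sap3 and 0.06 in WT, beside -0.03 and -0.02 over all probe sets. In the 12 arrays as labelled, 0 of the 10 genes were called in either genotype by limma, where the called share of all probe sets was 0%. At an unadjusted p under 0.05, limma gave 0 of the 10 genes and 891 of all probe sets in sap3, and 0 and 1751 in WT. "Called" means an adjusted p under 0.05 from limma with Benjamini-Hochberg adjustment over all 28403 probe sets.

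**Figure D1:**
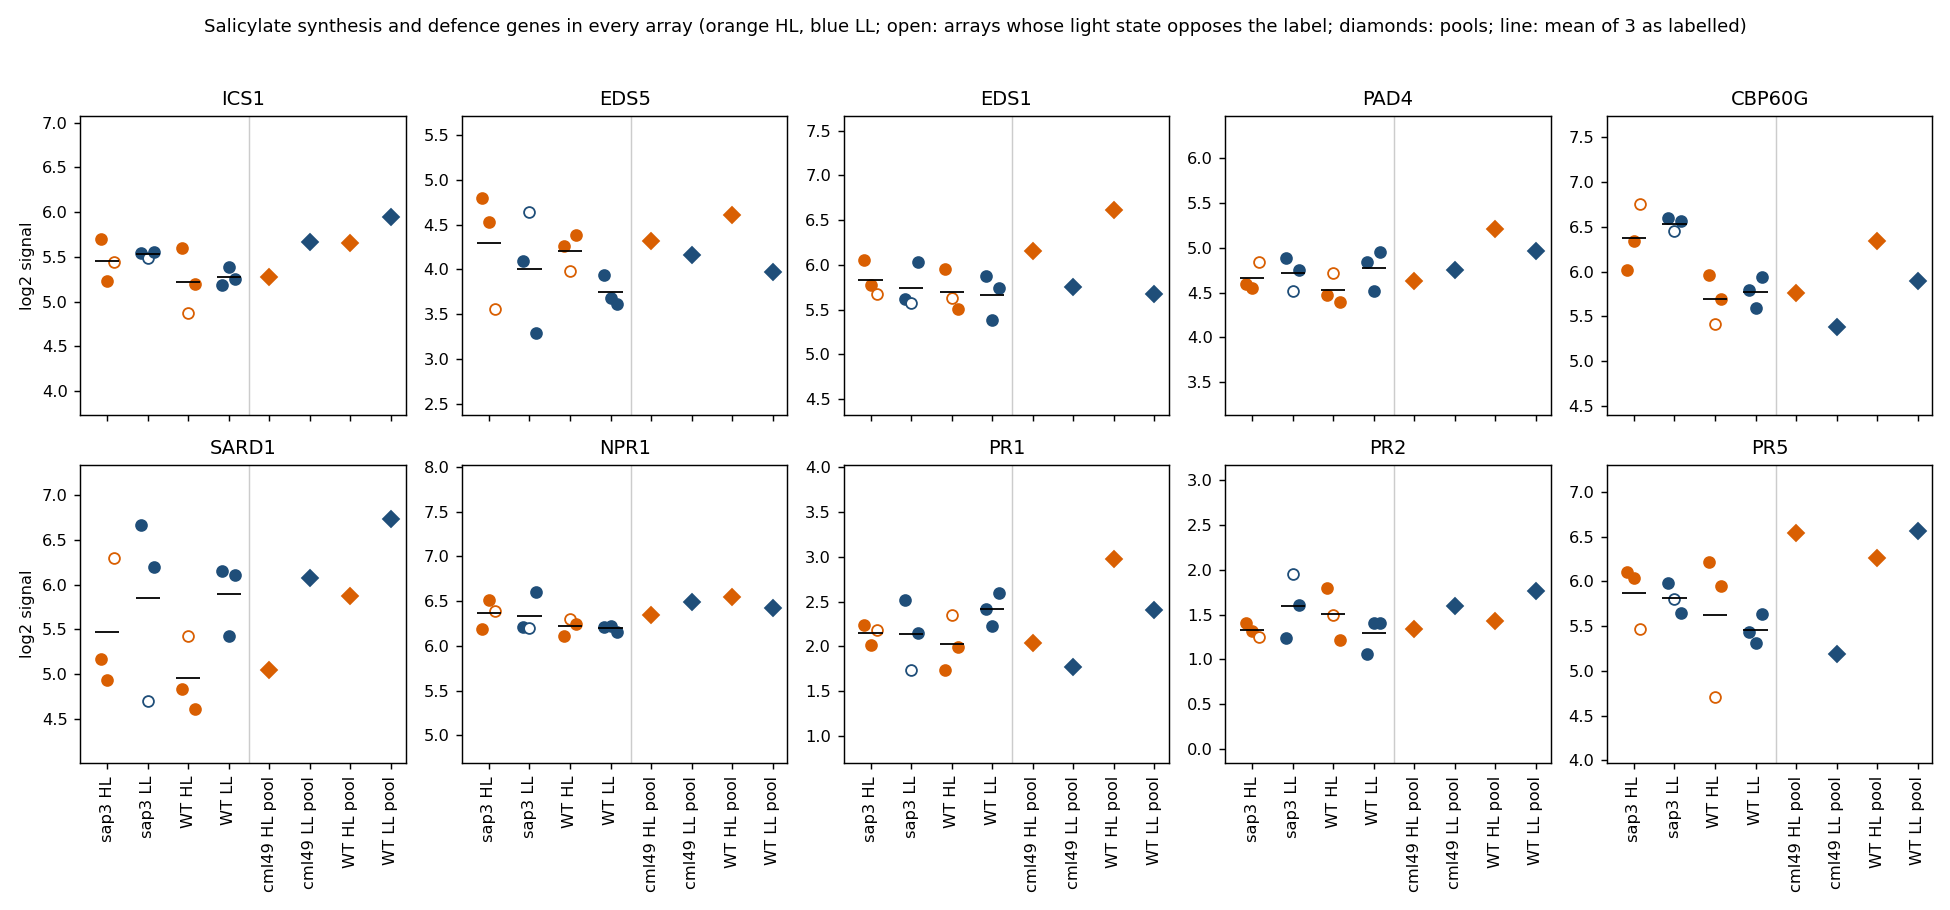
Log2 signal (vertical axis, the same span in every panel) of the 10 genes in each of the 16 arrays. Columns are the groups as labelled, orange for HL and blue for LL; open circles are the 3 arrays whose light state opposes the label, diamonds are pools of 45 plants, and lines are means of the 3 arrays as labelled. SARD1 lies at 4.61 to 5.17 in the filled HL circles, below every filled LL circle (5.42 to 6.66), and CBP60G lies higher in all 6 sap3 circles than in all 6 WT circles.

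The early regulators EDS1 (AT3G48090; chromosome 3, 17755374 to 17757780, minus strand in the authors' annotation) and PAD4 (AT3G52430; chromosome 3, 19431371 to 19434403, plus strand) changed little. EDS1 read 6.05, 5.78 and, in the array labelled HL replicate 3, 5.67 in sap3 HL, against 5.62, 6.03 and, in the array labelled LL replicate 2, 5.58 in sap3 LL. WT arrays gave 5.95, 5.51 and, in the array labelled HL replicate 2, 5.63 in HL, against 5.88, 5.38 and 5.74 in LL. The HL and LL ranges of EDS1 overlapped in both genotypes. Its HL minus LL difference in the 9 arrays was 0.09 in sap3 (95% interval -0.43 to 0.61) and 0.06 in WT (-0.41 to 0.54). PAD4 read 4.60, 4.55 and, in the array set apart, 4.84 in sap3 HL, against 4.89, 4.75 and, in the array set apart, 4.52 in sap3 LL. For WT the PAD4 values were 4.47, 4.40 and, in the array set apart, 4.72 in HL, against 4.84, 4.52 and 4.95 in LL. Without the arrays set apart, PAD4 was lower in each HL array than in each LL array of its genotype, but by small amounts. The differences were -0.24 in sap3 (-0.63 to 0.14) and -0.34 in WT (-0.69 to 0.02), and neither passed the test (limma adjusted p = 0.509 and 0.274). Groups that do not overlap were common in the 9 arrays, at 45.5% of all probe sets for the sap3 light comparison and 38.6% for the WT one.

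ICS1 (AT1G74710; chromosome 1, 28070295 to 28074148, plus strand), the gene of the committed enzyme, showed no call at any setting run. It read 5.70, 5.23 and, in the array set apart, 5.44 in sap3 HL, against 5.54, 5.55 and, in the array set apart, 5.49 in sap3 LL. In WT the values were 5.60, 5.20 and, in the array set apart, 4.87 in HL, against 5.19, 5.39 and 5.25 in LL. The HL and LL ranges overlapped in WT, and in sap3 the remaining HL arrays lay on either side of the LL arrays. The difference in the 9 arrays was -0.08 in sap3 (-0.53 to 0.37) and 0.12 in WT (-0.28 to 0.53), so a change of more than 0.53 either way lies outside both intervals.

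EDS5 (AT4G39030; chromosome 4, 18185667 to 18189224, plus strand), which encodes the exporter of isochorismate from the chloroplast, was higher in HL, in sap3 past the threshold. It read 4.80 and 4.53 in sap3 HL, with 3.56 in the array set apart, against 4.09 and 3.29 in sap3 LL, with 4.64 in the array set apart. The WT values were 4.26 and 4.38 in HL, with 3.98 in the array set apart, against 3.94, 3.68 and 3.61 in LL. All 4 remaining HL arrays (4.26 to 4.80) were above all 5 remaining LL arrays (3.29 to 4.09), as was the case in either direction for 17.5% of all probe sets. The arrays set apart followed the light score: the one scoring near 1 lay among the HL values and the pair scoring near 0 lay among the LL values. EDS5 rose in sap3 HL in the 9 arrays, averaging 4.67 ± 0.19 (SD, n = 2) against 3.69 ± 0.57 in LL (n = 2), a difference of 0.98 with an SE of 0.25 (limma adjusted p = 0.0406). Its difference in WT, 0.58 (0.07 to 1.08), did not pass the test (limma adjusted p = 0.173). The sap3 call ended with array weights, when only the groups compared were fitted, and when sap3 HL replicate 1, sap3 HL replicate 2 or sap3 LL replicate 3 was left out, with limma adjusted p up to 0.221. As labelled, the 12 arrays gave 0.29 in sap3 (-0.47 to 1.05) and 0.46 in WT (-0.30 to 1.22).

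SARD1 (AT1G73805; chromosome 1, 27745427 to 27749178, minus strand), one of the factors that switch on ICS1 in the pathogen response, had the widest spread of the 10 genes over the 12 arrays, 2.05. It read 5.17 and 4.93 in sap3 HL, with 6.30 in the array set apart, against 6.66 and 6.20 in sap3 LL, with 4.70 in the array set apart. For WT the readings were 4.83 and 4.61 in HL, with 5.43 in the array set apart, against 6.15, 5.42 and 6.11 in LL. The 4 remaining HL arrays did not overlap the 5 remaining LL arrays. Of the arrays set apart, the labelled sap3 LL array sat among the HL values and the labelled sap3 HL array among the LL values. The labelled WT HL array, at 5.43, sat just above the lowest LL array. It lay nearer to the WT LL mean (5.89) than to the WT HL mean (4.72). Against the remaining arrays of both genotypes together it lay nearer to the HL mean. In the 9 arrays SARD1 fell in sap3 HL, to 5.05 ± 0.17 (SD, n = 2) against 6.43 ± 0.33 in LL (n = 2), a difference of -1.38 with an SE of 0.26 (limma adjusted p = 0.00957). It also fell in WT HL, to 4.72 ± 0.16 (n = 2) against 5.89 ± 0.41 in LL (n = 3), a difference of -1.17 with an SE of 0.24 (limma adjusted p = 0.0123). The sap3 call ended without sap3 HL replicate 2 or sap3 LL replicate 1 (limma adjusted p up to 0.0701), and the WT call without WT HL replicate 1 or 3 (up to 0.116). Averaged over both genotypes, a comparison added after the data were seen, SARD1 was -1.28 with limma adjusted p = 0.000696 and stayed called with each of the 9 arrays left out in turn. That average was called for 15.1% of all probe sets (7.76% higher and 7.36% lower), and for 3 of the 10 genes: SARD1, EDS5 (0.78, limma adjusted p = 0.0104) and PR5 (0.44, limma adjusted p = 0.039). The averaged PR5 call was lost in 9 of 18 alternatives, among them each array left out other than WT LL replicate 3 and sap3 LL replicate 1 (limma adjusted p up to 0.149), and that of EDS5 in 1 of 18. As labelled, the 12 arrays gave SARD1 differences of -0.39 in sap3 (-1.44 to 0.67) and -0.94 in WT (-1.99 to 0.12).

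CBP60G (AT5G26920; chromosome 5, 9475682 to 9478751, plus strand), the calmodulin-binding relative of SARD1, did not pass the test for light. It read 6.02 and 6.34 in sap3 HL, with 6.76 in the array set apart, against 6.60 and 6.56 in sap3 LL, with 6.45 in the array set apart. WT plants gave 5.96 and 5.69 in HL, with 5.42 in the array set apart, against 5.79, 5.59 and 5.94 in LL. The HL minus LL difference in the 9 arrays was -0.40 in sap3 (-0.81 to 0.01, limma adjusted p = 0.272) and 0.05 in WT (-0.32 to 0.43, limma adjusted p = 0.918). NPR1 (AT1G64280; chromosome 1, 23852748 to 23855566, minus strand), the coactivator receptor, had the narrowest spread of the 10 genes over the 12 arrays, 0.49. Its values were 6.19, 6.51 and, set apart, 6.39 in sap3 HL, against 6.21, 6.60 and, set apart, 6.20 in sap3 LL. In WT they were 6.11, 6.24 and, set apart, 6.30 in HL, against 6.21, 6.22 and 6.16 in LL. HL and LL overlapped in both genotypes, and the differences in the 9 arrays were -0.06 in sap3 (-0.46 to 0.35) and -0.02 in WT (-0.39 to 0.35).

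Of the output genes, PR1 and PR2 lay at the low end of the array's signal in every one of the 12 arrays. PR1 (AT2G14610; chromosome 2, 6241704 to 6242463, minus strand) had a mean at the 15.9th percentile of all probe sets and PR2 (AT3G57260; chromosome 3, 21188517 to 21189859, minus strand) at the 1.13th, which limits what can be seen of a decrease. PR1 read 2.24 and 2.01 in sap3 HL, with 2.18 in the array set apart, against 2.52 and 2.15 in sap3 LL, with 1.74 in the array set apart. WT arrays gave 1.74 and 1.99 in HL, with 2.35 in the array set apart, against 2.42, 2.23 and 2.59 in LL. The WT groups did not overlap without the array set apart, with a difference of -0.55 (-0.95 to -0.15) that did not pass the test (limma adjusted p = 0.0961), and sap3 gave -0.21 (-0.65 to 0.23). PR2 read 1.41, 1.32 and, set apart, 1.25 in sap3 HL, against 1.24, 1.61 and, set apart, 1.95 in sap3 LL. In WT PR2 read 1.80, 1.22 and, set apart, 1.50 in HL, against 1.06, 1.41 and 1.41 in LL. No order of the light levels was visible in PR2.

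PR5 (AT1G75040; chromosome 1, 28177703 to 28178940, plus strand) had a mean above the median signal and was higher in HL in WT. It read 6.10 and 6.04 in sap3 HL, with 5.47 in the array set apart, against 5.98 and 5.65 in sap3 LL, with 5.80 in the array set apart. The WT values were 6.22 and 5.95 in HL, with 4.71 in the array set apart, against 5.43, 5.31 and 5.64 in LL. The labelled WT HL replicate 2 was thus the lowest PR5 value of the 12. PR5 rose in WT HL in the 9 arrays, averaging 6.09 ± 0.19 (SD, n = 2) against 5.46 ± 0.17 in LL (n = 3), a difference of 0.63 with an SE of 0.17 (limma adjusted p = 0.0455). The sap3 difference of 0.26 (-0.15 to 0.67) did not pass the test (limma adjusted p = 0.517). The WT call ended when only the groups compared were fitted, and when WT HL replicate 1, WT HL replicate 3, WT LL replicate 1 or WT LL replicate 2 was left out, with limma adjusted p up to 0.304. As labelled, the 12 arrays gave 0.06 in sap3 (-0.65 to 0.77) and 0.17 in WT (-0.54 to 0.88).

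**Figure D2:**
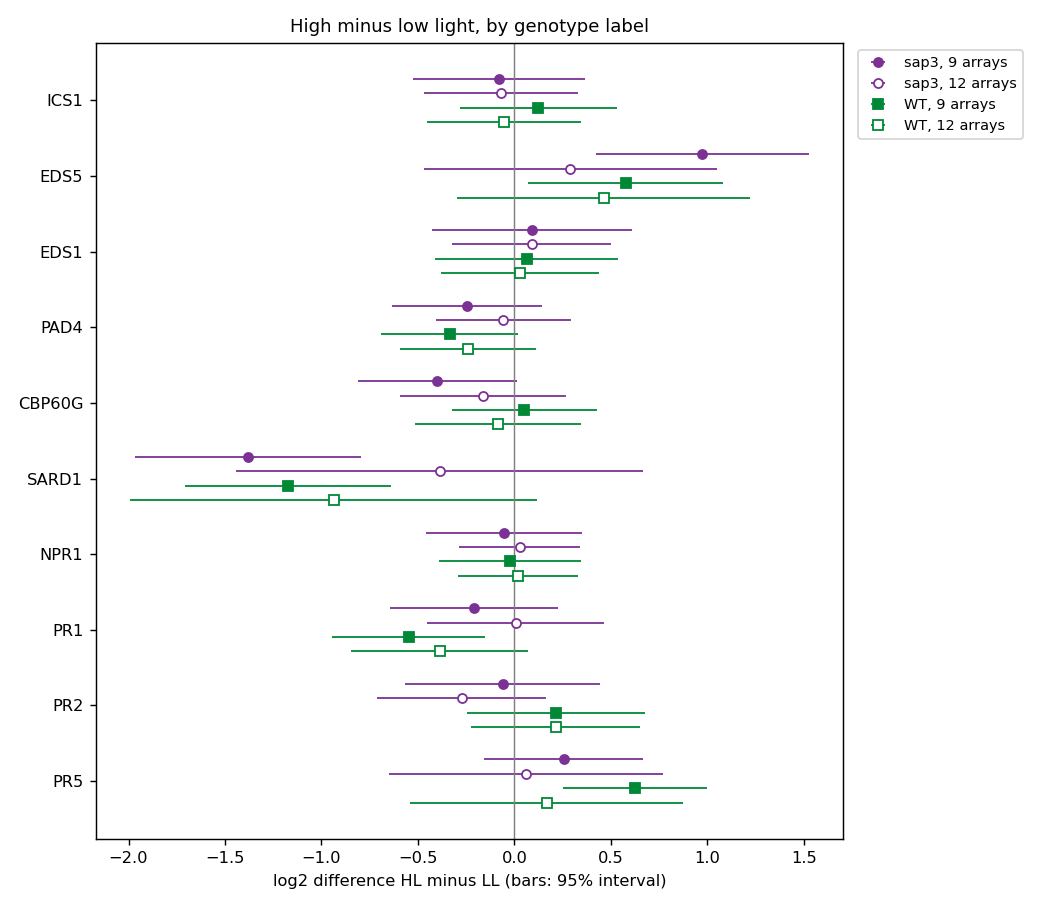
HL minus LL difference of the 10 genes (horizontal axis, log2, bars are 95% intervals), with sap3 above WT in each row, filled for the 9 arrays and open for the 12 as labelled. SARD1 lies at -1.38 in sap3 and -1.17 in WT in the 9 arrays, with intervals clear of 0, while the 12-array intervals cross 0.

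Beyond the 10 genes, 59 other genes of salicylate metabolism and defence were listed, and 58 of them had a probe set. In the 9 arrays, 10 of the 58 were called in sap3, 4 higher and 6 lower in HL, where 4.09% and 3.47% of all probe sets were called higher and lower. In WT 15 of the 58 were called, 5 higher and 10 lower, where 4.99% and 4.14% of all probe sets were called. The median difference over the 58 was -0.06 in sap3 and -0.17 in WT. In the 12 arrays as labelled, 0 of the 58 were called in either genotype by limma. At an unadjusted p under 0.05 there were 2 in sap3 and 8 in WT, beside 891 and 1751 of all 28403 probe sets. The number called in the 9 arrays depended on single arrays: it was 2 without sap3 HL replicate 1, 5 without sap3 LL replicate 3, 5 without WT HL replicate 3 and 7 without WT HL replicate 1. Averaged over both genotypes, where 7.76% of all probe sets were called higher and 7.36% lower, 21 of the 58 were called, 8 higher and 13 lower. Beyond the genes named below these were WAK1 (0.65), ICS2 (-0.54), PR4 (-0.50) and CAMTA1 (-0.46), while WRKY53 was not among them.

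Of NPR1's relatives, NPR3 was lower in HL in both genotypes, NPR4 in WT, and NPR2 was not called in either. NPR3 read 4.73 and 4.93 in sap3 HL, with 6.73 in the array set apart, against 6.26 and 6.75 in sap3 LL, with 5.03 in the array set apart. For WT the readings were 4.68 and 4.78 in HL, with 6.26 in the array set apart, against 6.38, 6.14 and 6.04 in LL. Each array set apart took the NPR3 level of its light score, not of its label. NPR3 fell by 1.68 in sap3 (SE 0.20, limma adjusted p = 0.000644) and by 1.46 in WT (SE 0.18, limma adjusted p = 0.000675), and both calls held with each array of that genotype left out. NPR4 fell by 0.94 in WT (limma adjusted p = 0.00147), and its sap3 value was -0.49 (limma adjusted p = 0.0772). Of the partners of NPR proteins, the bZIP factor TGA4 fell in both genotypes, by 0.78 in sap3 and 0.74 in WT. TGA1 fell by 0.92 in WT, and NIMIN3, which encodes an NPR1-interacting protein, fell by 0.83 in WT, while TGA3 rose by 0.63 in WT. In sap3 TGA1, NIMIN3 and TGA3 were not called, but the remaining arrays went the same way. There TGA1 read 5.47 and 6.04 in HL against 6.65 and 6.41 in LL, and NIMIN3 3.03 and 2.93 against 3.61 and 3.26. TGA3 read 8.05 and 8.24 in HL against 7.88 and 7.53 in LL. These partner calls rested on single arrays: TGA3 was called with none of the 5 WT arrays left out, NIMIN3 only without WT LL replicate 1, TGA1 only without WT LL replicate 1 or 3, and TGA4 only without WT LL replicate 2 or 3. In sap3, TGA4 was called only without HL replicate 2. The NPR4 call held with each WT array left out. In all, 2 of 14 receptors and partners were called in sap3, both lower, and 6 of 14 in WT, 1 higher and 5 lower. The called shares of all probe sets were 7.57% in sap3 and 9.13% in WT.

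Among the transcription factors, WRKY70 and WRKY54, a pair of related regulators downstream of salicylate that also limit its accumulation, fell in both genotypes. WRKY70 read 6.68 and 6.81 in sap3 HL, with 8.87 in the array set apart, against 8.02 and 8.71 in sap3 LL, with 6.46 in the array set apart. WT plants gave 6.89 and 6.64 in HL, with 8.09 in the array set apart, against 8.63, 7.70 and 8.50 in LL. The HL and LL arrays of WRKY70 did not overlap once the 3 were apart. The WRKY70 difference was -1.62 in sap3 and -1.51 in WT (limma adjusted p = 0.0104 and 0.00794), and that of WRKY54 -1.49 in sap3 and -1.92 in WT (0.00639 and 0.000672). The WT call of WRKY54 held with each array left out. Its sap3 call ended without HL replicate 1 (limma adjusted p = 0.0536), the sap3 call of WRKY70 without HL replicate 1 or LL replicate 3 (up to 0.0853), and the WT call of WRKY70 without HL replicate 3 (0.0843). WRKY46 rose by 1.07 in sap3, and its WT value was 0.71 (limma adjusted p = 0.0767). CBP60A, the CBP60 relative that restrains immunity, rose by 0.73 in WT, and WRKY53, a factor tied to leaf senescence, rose by 0.92 in WT. Neither was called in sap3, where CBP60A read 6.85 and 6.49 in HL against 6.43 and 6.40 in LL. WRKY53 in sap3 read 5.38 and 5.36 in HL against 5.29 and 5.65 in LL. The WRKY46 call ended without sap3 HL replicate 1 or LL replicate 3. Both WT HL replicates were needed for the CBP60A and WRKY53 calls, as were WT LL replicate 1 for CBP60A and WT LL replicate 2 for WRKY53. Of the 12 factors, 3 were called in sap3 and 4 in WT, where 7.57% and 9.13% of all probe sets were called.

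In synthesis and modification, the glucosyltransferase gene UGT74F2, whose enzyme conjugates salicylate to glucose, had the lowest difference of the 58 in sap3. It read 4.13 and 4.44 in sap3 HL, with 6.57 in the array set apart, against 6.31 and 6.60 in sap3 LL, with 4.81 in the array set apart. WT arrays gave 4.24 and 4.36 in HL, with 6.74 in the array set apart, against 6.15, 6.34 and 6.03 in LL. The gap between HL and LL was wider than the spread within either. UGT74F2 fell by 2.17 in sap3 (SE 0.18, limma adjusted p = 8e-05) and by 1.87 in WT (SE 0.17, limma adjusted p = 8.82e-05), and both calls held with each array of that genotype left out. Phenylalanine ammonia-lyase starts the other, phenylpropanoid route to salicylate, and its genes did not move together. PAL1 rose by 0.98 in sap3 and 0.83 in WT, while PAL3 fell by 0.73 in sap3 and 0.66 in WT. EPS1, which encodes an enzyme that turns the glutamate conjugate of isochorismate into salicylate, rose by 1.2 in sap3, and its WT value was 0.42 (limma adjusted p = 0.437). The PAL3 call was lost with each of the 5 WT arrays left out and, in sap3, without HL replicate 1, HL replicate 2 or LL replicate 3. PAL1 lost its call without WT HL replicate 1 or 3 and without sap3 HL replicate 1 or LL replicate 1, and EPS1 without sap3 HL replicate 1, LL replicate 1 or LL replicate 3 (limma adjusted p up to 0.226). Of the 13 genes of this kind, 4 were called in sap3 and 3 in WT, beside 7.57% and 9.13% of all probe sets.

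Among 10 further salicylate-responsive genes, LURP1, needed for basal defence against a downy mildew, fell by 1.66 in WT, and its sap3 value was -0.97 (limma adjusted p = 0.107). NUDT7, a nudix hydrolase gene that restrains EDS1 signalling, rose by 0.81 in WT, and ACD6, an ankyrin-repeat activator of salicylate defence, rose by 1.09 in sap3. Without a call, NUDT7 read 6.93 and 6.55 in sap3 HL against 6.17 and 6.12 in sap3 LL. ACD6, also without a call, read 10.40 and 10.20 in WT HL against 9.78, 9.14 and 9.70 in WT LL. LURP1 lost its call without WT HL replicate 3, NUDT7 without WT HL replicate 3 or LL replicate 3, and ACD6 without sap3 HL replicate 1, HL replicate 2 or LL replicate 3 (limma adjusted p up to 0.158). Of the 5 genes of upstream signalling and N-hydroxypipecolate synthesis and the 4 of jasmonate and ethylene defence, 0 were called by limma in either genotype. At an unadjusted p under 0.05 there were 0 of 5 upstream genes in both genotypes. Of the jasmonate and ethylene genes it was 2 of 4 in sap3 and 1 of 4 in WT. Over all 28403 probe sets it was 5538 in sap3 and 5803 in WT. Guard cell markers moved with the same comparison: of 4, KAT1 rose by 1.60 in sap3 and 1.91 in WT, BLUS1 fell by 1.00 in WT, and MYB60 and FAMA were not called. BLUS1 was not called in sap3, where it read 4.70 and 4.66 in HL against 5.67 and 5.07 in LL. No leaf, root, flower or senescing leaf marker was called by limma in either genotype. At an unadjusted p under 0.05 there were 3 of the 21 markers in each, beside the same counts over all probe sets. The part of guard cells in the values above was not tested, and in whole rosettes fewer cells of a type and less RNA per cell cannot be told apart.

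**Figure D3:**
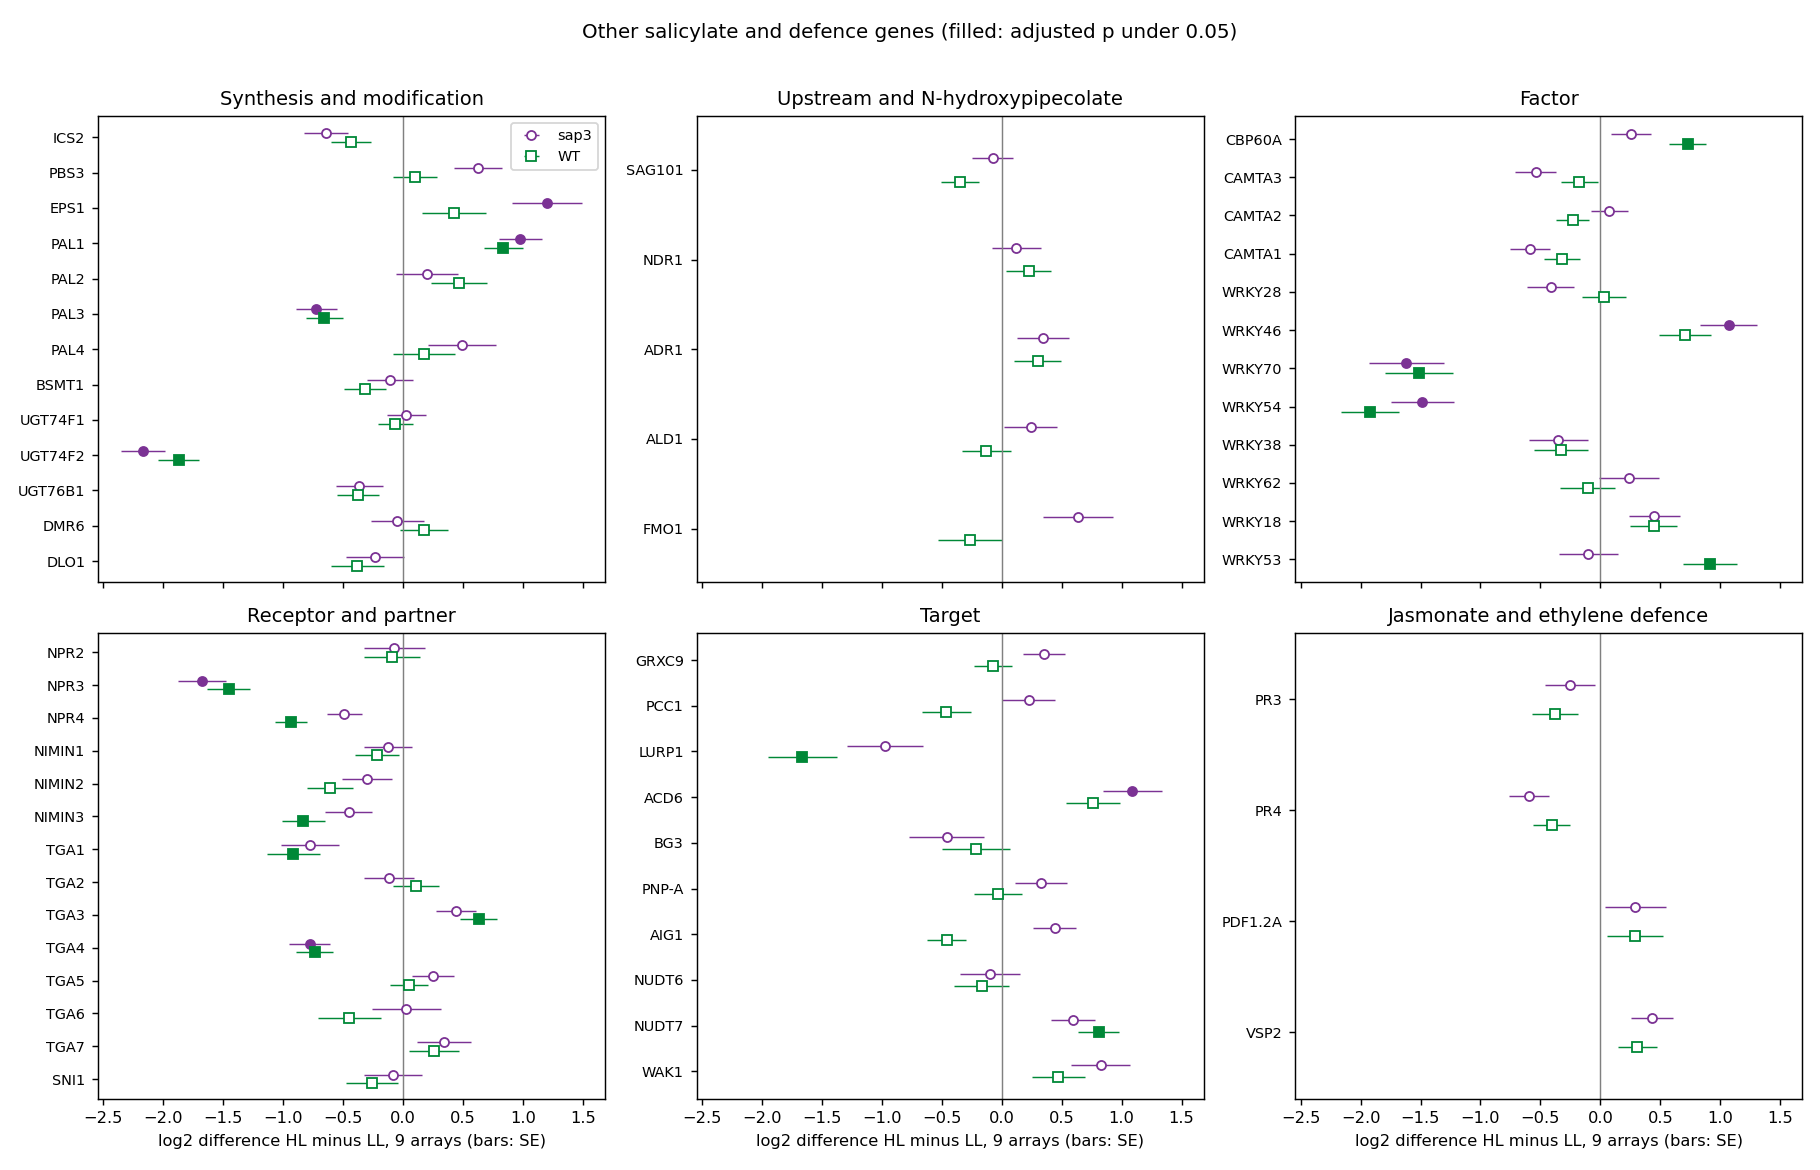
HL minus LL difference in the 9 arrays (horizontal axis, log2, bars are SE) for the 58 other genes by role, with sap3 (circles) above WT (squares) in each row and filled symbols for an adjusted p under 0.05. UGT74F2, WRKY70, WRKY54 and NPR3 lie between -1.46 and -2.17 in both genotypes, while PAL1 lies at 0.83 or above.

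**Figure D4:**
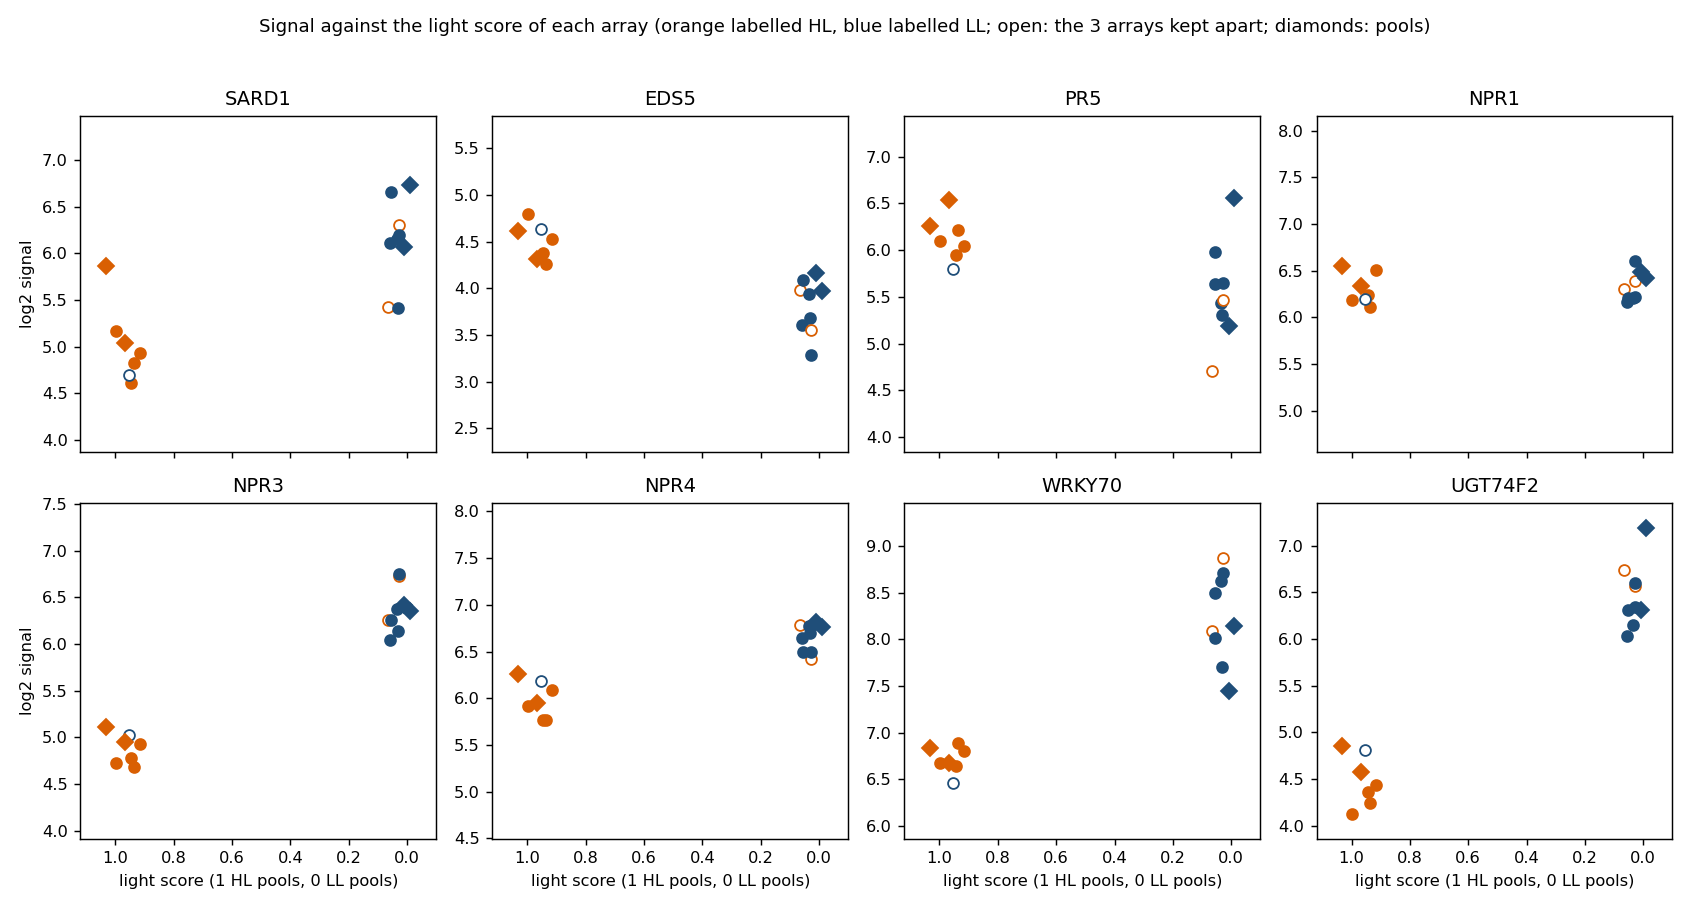
Log2 signal of 8 genes (vertical axis, same span in every panel) against the light score of each of the 16 arrays (horizontal axis, 1 for the HL pools at left and 0 for the LL pools at right); colours give the labels, open circles the 3 arrays set apart and diamonds the pools. The open circles fall with the arrays of their score for NPR3, NPR4 and UGT74F2, and NPR1 shows no step.

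The comparison of sap3 with WT asks whether loss of SAP3 alters these transcripts. None of the 10 genes was called in HL or LL by limma, in the 12 or the 9 arrays. At an unadjusted p under 0.05 there was 1 of 10 in HL and 1 of 10 in LL in the 12 arrays, CBP60G both times. In the 9 arrays there were 0 in HL and 2 in LL, CBP60G and SARD1. Over all 28403 probe sets there were 812 in HL and 1283 in LL in the 12 arrays, and 1272 and 1706 in the 9. In the 12 arrays 0% of all probe sets were called at either light level, and in the 9 arrays 0.00352% in HL and 0% in LL. The median difference of the 10 genes was 0.14 in HL and 0.20 in LL in the 12 arrays, beside 0.00 over all probe sets.

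CBP60G had the smallest p of the 10 genes between the genotypes in the 12 arrays. Its 6 sap3 arrays (6.02 to 6.76) all lay above its 6 WT arrays (5.42 to 5.96), in the arrays as labelled. It was the only one of the 10 genes with such a separation over all 12 arrays, which 73 of 28403 probe sets (0.257%) showed in either direction. That separation takes the genotype labels of sap3 LL replicate 2 (6.45) and WT HL replicate 2 (5.42) as given, although SAP3 goes against both, and it would not hold if the pair were exchanged. Without the 3 arrays set apart, the sap3 arrays (6.02 to 6.60) still lay above the WT arrays (5.59 to 5.96), as 1.38% of all probe sets did in either direction. In HL it averaged 6.37 ± 0.37 in sap3 and 5.69 ± 0.27 in WT (SD, n = 3 each), a difference of 0.68 (0.25 to 1.11, limma adjusted p = 1). In LL it averaged 6.54 ± 0.08 in sap3 and 5.77 ± 0.18 in WT (n = 3 each), a difference of 0.76 (0.33 to 1.19, limma adjusted p = 0.971). Averaged over both light levels, added after the data were seen, the difference was 0.72 with an SE of 0.14 and unadjusted p = 0.000247, and limma adjusted p = 0.882. The 9 arrays gave 0.36 in HL (-0.06 to 0.77), 0.81 in LL (0.43 to 1.18, limma adjusted p = 0.475) and 0.58 on average, where 0.0106% of all probe sets were called. CBP60G did not pass the adjustment over all probe sets in any of these fits. The WT pools read 6.34 in HL, above every single WT array and inside the sap3 range, and 5.89 in LL.

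Other genes were less clear between the genotypes. SARD1 in the 9 arrays was 0.33 higher in sap3 in HL (-0.25 to 0.91) and 0.54 higher in LL (0.00 to 1.07). ICS1 was 0.07 higher in HL (-0.38 to 0.51) and 0.27 higher in LL (-0.14 to 0.68), and NPR1 0.17 (-0.23 to 0.58) and 0.21 (-0.16 to 0.58). As labelled, 1 of the 10 genes in HL and 3 in LL were higher in sap3 without overlap in the 12 arrays, and 0 were lower. Over all probe sets, 6.96% in HL and 9.98% in LL did not overlap, counted in either direction. For the 9 arrays, 5 of the 10 genes in HL and 4 in LL were higher in sap3 without overlap, and 0 were lower. The shares of all probe sets without overlap, again in either direction, were 32.6% and 19.6%. Of the 58 other genes 0 were called by limma at either light level in the 9 arrays. At an unadjusted p under 0.05 there were 5 in HL and 9 in LL, beside 1272 and 1706 of all 28403 probe sets. Those with the smallest p in HL were AIG1 (0.64), EPS1 (0.94), WRKY46 (0.60) and PAL3 (-0.42), all with limma adjusted p = 0.996. In LL they were WRKY53 (1.13, limma adjusted p = 0.475), NUDT7 (0.45), LURP1 (-0.75) and CBP60A (0.39), with limma adjusted p of 0.748 to 0.765 for the last 3.

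**Figure D5:**
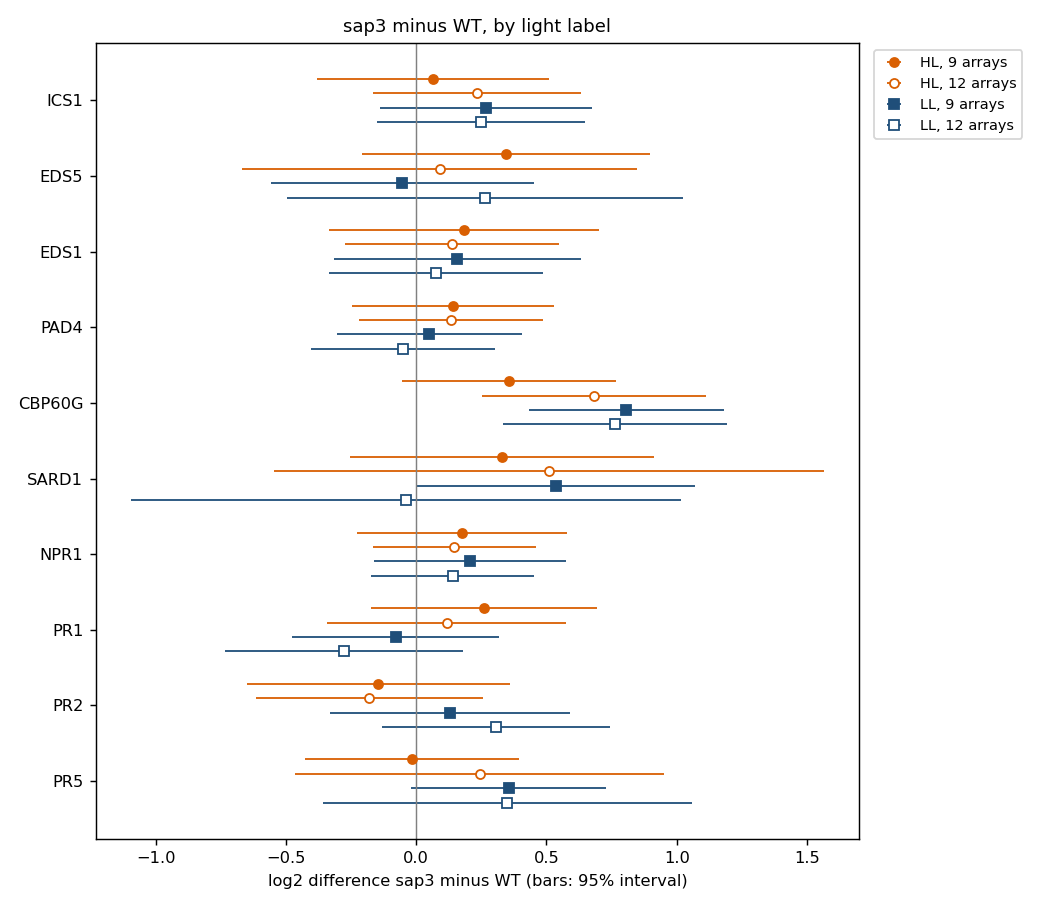
Difference sap3 minus WT of the 10 genes (horizontal axis, log2, bars are 95% intervals), with HL above LL in each row, filled for the 9 arrays and open for the 12 as labelled. CBP60G lies at 0.68 in HL and 0.76 in LL in the 12 arrays, and most other intervals cross 0.

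The light response itself was compared between the genotypes by an interaction term, the sap3 HL minus LL difference less the WT one. None of the 10 genes was called by limma in the 12 or the 9 arrays, and 0% of all probe sets were called. None of the 10 had an unadjusted p under 0.05, where 744 of all 28403 probe sets did in the 12 arrays and 1192 in the 9. The calls of EDS5 in sap3 and of PR5 in WT are therefore not shown to differ between genotypes. The interaction in the 9 arrays was 0.40 for EDS5 (-0.35 to 1.15), -0.37 for PR5 (-0.93 to 0.19), -0.21 for SARD1 (-1.00 to 0.58) and -0.45 for CBP60G (-1.01 to 0.10). Of the 58 other genes 0 were called by limma and 5 had an unadjusted p under 0.05, among them AIG1 (0.90), WRKY53 (-1.01), PCC1 (0.69) and NPR4 (0.45), all with limma adjusted p = 1.

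The pools give 1 array per group, so their differences have no replicate check and no test. SARD1 was lower in HL in both pairs, at 5.04 in the cml49 HL pool against 6.07 in the cml49 LL pool, and 5.87 in the WT HL pool against 6.73 in the WT LL pool. The differences of -1.03 in cml49 and -0.86 in WT lie in the direction of the single arrays. EDS5 read 4.32 in cml49 HL against 4.16 in cml49 LL, and 4.61 in WT HL against 3.97 in WT LL. EDS1 read 6.15 in cml49 HL against 5.75 in cml49 LL, and 6.61 in WT HL against 5.67 in WT LL, a gap of 0.94 in WT that the single WT arrays did not show. PR5 went opposite ways, at 6.54 in cml49 HL against 5.19 in cml49 LL (1.35), and 6.26 in WT HL against 6.56 in WT LL (-0.30). The WT pool thus had the opposite sign to the single WT arrays for PR5, and the WT LL pool was above every single WT LL array. A difference of at least 1 was reached by 2 of the 10 genes in cml49, SARD1 and PR5, one lower and one higher, where 2.90% of all probe sets were lower and 3.45% higher by that much, and by 0 of 10 in WT, where 3.36% were lower and 4.39% higher.

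Between the pools, whose genotype labels CML49 goes against, 9 of the 10 genes were lower in the pool labelled cml49 than in that labelled WT in HL, with a median difference of -0.42, beside 0.00 over all probe sets. The values ran from -0.94 for PR1 (2.04 in cml49 against 2.98 in WT) and -0.83 for SARD1 to 0.28 for PR5, and 0 of the 10 reached 1 in size, where 0.687% of all probe sets were lower and 0.387% higher by that much. In LL 7 of 10 were lower in cml49, with a median of -0.24, and PR5 reached -1.37 (5.19 in cml49 against 6.56 in WT), where 0.549% of all probe sets were lower by 1 or more and 0.753% higher. The light and genotype differences of the pools share arrays. If the pool labels were exchanged, every sign in this comparison would turn. Of the 58 other genes, 3 were lower by at least 1 in cml49 in HL: the salicylate hydroxylase gene DMR6 (6.76 in cml49 against 8.49 in WT), AIG1 (3.19 against 4.25) and WRKY46 (2.93 against 3.97). The WT HL pool read above all 3 WT HL arrays for DMR6 (6.41 to 6.82), AIG1 (3.11 to 3.74) and WRKY46 (2.29 to 3.12). The pool labelled cml49 lay inside these ranges, so it is the WT HL pool that stands apart in these genes. WT HL replicate 2, an array set apart, gave an end of each range (6.82, 3.74 and 2.29). The light differences of NPR3 were -1.47 in cml49 and -1.24 in WT, of UGT74F2 -1.74 and -2.34, of WRKY54 -1.43 and -1.63, and of WRKY70 -0.77 and -1.30.

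Finally, the probe sets most like ICS1 and PR1 over the 12 arrays were listed among 13757 single-locus probe sets of at least median signal. For ICS1 they were AK-LYS1 (Pearson's r = 0.827), an aspartokinase gene, AT5G49210 (0.824), AT1G77400 (0.813), AT3G04660 (0.798) and AT2G22795 (0.766). For PR1 they were AT3G07640 (0.96), AT5G57290 (0.947), a ribosomal P3 protein gene, AT5G17190 (0.94), the kinase gene MPK7 (0.935) and AT2G25050 (0.933). No gene of the salicylate lists was among them, but listed genes with a mean below the median, such as PR2 and EDS5, could not appear. The values of ICS1 and PR1 spanned only 0.83 and 0.85, and the 12 arrays share their light labels and normalization, so these are descriptions of the ranking and no more.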

How the data were processed

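The authors' deposited values are log2 signals, computed with RMA in Affymetrix Expression Console per the submitters' processing notes. Neither the software version nor the genome build is named in the sources used here. Of 28501 probe sets, 28403 in the main category were analysed. Array medians ran from 4.37 to 4.42. Gene identities and coordinates are those of the authors' annotation and a RefSeq table (TAIR10.1, used for names only). The 16 signal columns of the deposited workbook were not used. Where a locus had several probe sets, the one with the highest mean was used.

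limma (version 3.58.1, R 4.3.3) was fitted to 4 group means with its default prior, two-sided, with Benjamini-Hochberg adjustment over all probe sets and a threshold of 0.05. It was tested on simulated data with independent noise and no arrays of opposing light state. That test does not show how the fit behaves on the 12 arrays as labelled. The number of arrays limits the precision, and p-values measure the spread between samples of 15 plants. The members and lists, the 9-array alternative and the naming rule were chosen with earlier results of these data known. All 10 members are given in every array. Of the 58 other genes, each comparison within a genotype or light level names every locus called, and otherwise up to 4 with the smallest p in the 9 arrays. Other 12-array and pool values were chosen after they were seen. Comparisons averaged over genotypes or light levels, alternatives on the 9 arrays, and the shares of non-overlap across genotypes and light levels were added after the data were seen. Alternatives were the prior, array weights, a replicate block, centring, quantile normalization, a filter on dim probe sets, 1 probe set per locus, only the groups compared, an adjusted p under 0.01 and each array left out.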

Additional observations from a re-analysis of the deposited data

How the results depend on the processing

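With the 12 arrays as labelled, 0 of the 10 genes were called in each comparison under every alternative that kept those arrays, and leaving out the 3 arrays whose light state opposes the label gave 2 in sap3 HL minus LL and 2 in WT HL minus LL. Within the 9 arrays, the count was 1 in sap3 and 2 in WT with array weights, 1 and 1 when only the groups compared were fitted, and 1 and 0 at an adjusted p under 0.01. Leaving out 1 array at a time gave 0 to 1 in sap3 and 0 to 2 in WT. With the replicate block, the count was 1 in sap3 and 1 in WT, SARD1 remaining called in both and EDS5 (sap3) and PR5 (WT) not, and of the 58 other genes 3 of 10 calls in sap3 and 7 of 15 in WT were lost. Whether the replicate numbers pair the arrays is not settled. Over the 12 arrays as labelled, same-numbered arrays' deviations from their group means correlated at -0.633 to 0.527, and 4 of 18 pairs were over 0.1. Those means include the 3 arrays whose light state opposes the label, so the correlations cannot decide it. No called value changed sign. Of 656 values of the 10 genes under the other settings in the 9 arrays, 11 lost a call. Most of the 656 were not called to begin with, so this share does not measure how firm the calls were. It also leaves out the calls that ended when an array was left out. The pools' count of 3 differences of at least 1 did not change with centring or quantile normalization. PR1 and PR2 lie near the bottom of the signal range, which limits what can be said of them.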
